A study of Mus musculus with 4 samples.

Results

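The TetO viewpoint comprised all contacts that the integrated TetO array site made along chromosome 15 in Tiled Capture-C maps of mouse embryonic stem cells (mESCs). Its members were the pairs between the 3 bins of 6.4 kb at the array (chr15:11635201-11654400 of mm9, the TetO bin and its neighbour on either side) and every bin of the captured region (chr15:10278401-13196800). The 3 bins at the LacO array (chr15:11488001-11507200) were left out. This gave 1353 of the 103740 bin pairs of the region in each library, 624 of them upstream and 723 downstream of the viewpoint, the remainder joining viewpoint bins to each other.

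All 4 libraries came from clonal E14 mESC lines that shared a set of engineered alleles. TetO and LacO operator arrays, bacterial sequences that tagged repressors bind to mark a locus in living cells, sat on 1 of the 2 alleles of chromosome 15, both on the same allele. The parental line lacked 2 CTCF sites of this domain, every line expressed TetR-tdTomato and LacI-eGFP, and both alleles of the cohesin subunit RAD21 were fused to HaloTag and an FKBP degron. Line 1A2 had neither CTCF sites nor resistance cassettes beside the arrays. Line 1F4 had no CTCF sites but retained resistance cassettes, driven by the mouse Pgk1 promoter, next to both arrays. Line 1B1, free of resistance cassettes, carried a 3xCTCF cassette (3 CTCF sites in a row) next to each array, the cassettes pointing toward each other. The fourth library, called cohesin-degraded 1B1 below, was made from 1B1 cells given 500 nM dTAG-13 for 2 h, a compound that sends the tagged RAD21 to degradation. Each group was 1 library of 1 clone, so no difference below has a replicate check and none carries a p-value. Since the maps do not tell alleles apart, every value mixes the allele with the arrays and the allele without them.

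Cohesin is a ring-shaped complex thought to reel in chromatin and so form loops, and CTCF halts it in an orientation-dependent manner. Stretches between strong CTCF sites therefore appear in contact maps as topologically associating domains (TADs), inside which sites meet more often than across the borders. A pair of CTCF sites facing each other often shows a focal contact, and a single site often meets many positions on the side it faces. The 3xCTCF cassette beside TetO faced upstream, toward LacO. The resistance cassettes of 1F4 placed active transcription next to the arrays.

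The arrays are absent from the reference genome, so the position of the viewpoint came from the reference sequence at the integration site. The site is given here together with that of LacO, because it fixes the origin from which every distance was measured. Both are on the plus strand of mm9 (NCBIM37), the TetO site at chr15:11647296-11647435 and the LacO site at chr15:11496832-11496971. Capitals mark the guide target and the adjoining NGG motif needed for cleavage (chr15:11647356-11647375 and chr15:11496892-11496911 without the motif).
TetO site: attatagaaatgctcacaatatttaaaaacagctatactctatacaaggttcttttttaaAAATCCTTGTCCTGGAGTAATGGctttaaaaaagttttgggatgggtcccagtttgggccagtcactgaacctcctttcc
LacO site: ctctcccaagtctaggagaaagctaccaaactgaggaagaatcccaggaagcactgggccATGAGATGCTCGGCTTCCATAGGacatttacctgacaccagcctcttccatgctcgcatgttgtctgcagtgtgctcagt

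Neither site overlapped an annotated gene. The nearest protein-coding genes were Tars upstream (chr15:11313418-11329413), which encodes threonyl-tRNA synthetase, and Npr3 downstream (chr15:11769651-11835429), which encodes the clearance receptor for natriuretic peptides. The TAD around the arrays was bounded by insulation minima at chr15:11334401-11340800 and chr15:11891201-11897600, respectively 307.2 kb upstream and 249.6 kb downstream of the TetO bin. A search for the core CTCF motif CCNCNAGGNGGC on both strands found it in 10.1% of all 3-bin windows of the region. The upstream boundary window held 1 match, at chr15:11337309-11337320 on the minus strand. It is shown here in capitals within the plus strand of chr15:11337300-11337329, since the local peak of 1B1 described below lies in the same bin.
Upstream boundary match: aagacggtcGCCACCTAGTGGttacatgtc
The match describes letters of the reference and not a bound site, and the downstream boundary, TetO and LacO windows held none. By the usual reading of this motif, a match on the minus strand faces upstream, here away from TetO. The cassette beside TetO also faced upstream, so the match and the cassette are not a facing pair.

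Reads behind the values were few. The libraries held 3214144 read pairs in 1A2, 4089968 in 1F4, 3234581 in untreated 1B1 and 3622612 in cohesin-degraded 1B1, recovered from the balanced signal that was deposited. The viewpoint received 10340, 13530, 10933 and 11135 of them within the region, in the same order, and 78.6% to 82.6% of its bin pairs had at least 1 read. The TetO bin itself was covered at 76.9% to 82.8% of the median bin, its upstream neighbour at 41.5% to 43.1% and its downstream neighbour at 130% to 139%, with little difference between libraries. Contact is given below as observed/expected, the balanced signal divided by the mean signal of the region at the same genomic separation in the same library. A value of 1 is thus the regional average, and ± gives the Poisson counting error of the reads. This error does not cover variation between cultures or preparations, and reads had no molecular identifiers. For scale, many of the log2 ratios are set beside the standard deviation (SD) of the same measure at all other viewpoints of the region, as a description and not as a test.

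The contact profile of TetO had several features in common across the 4 libraries. Contact averaged over 20 to 50 kb was below the regional average, between 0.803 and 0.896 upstream and between 0.759 and 0.821 downstream. The bin 19.2 kb upstream, nearer than this band, was above average in all 4 libraries, between 1.07 and 1.25. Contact was above average in tiles toward both ends of the TAD. At 400 to 800 kb downstream it was below average, with observed/expected of 0.608, 0.659, 0.548 and 0.548 in 1A2, 1F4, 1B1 and cohesin-degraded 1B1. Beyond 800 kb upstream it was above average in all 4 libraries, at 1.41, 1.40, 1.45 and 1.96.

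**Figure D1:**
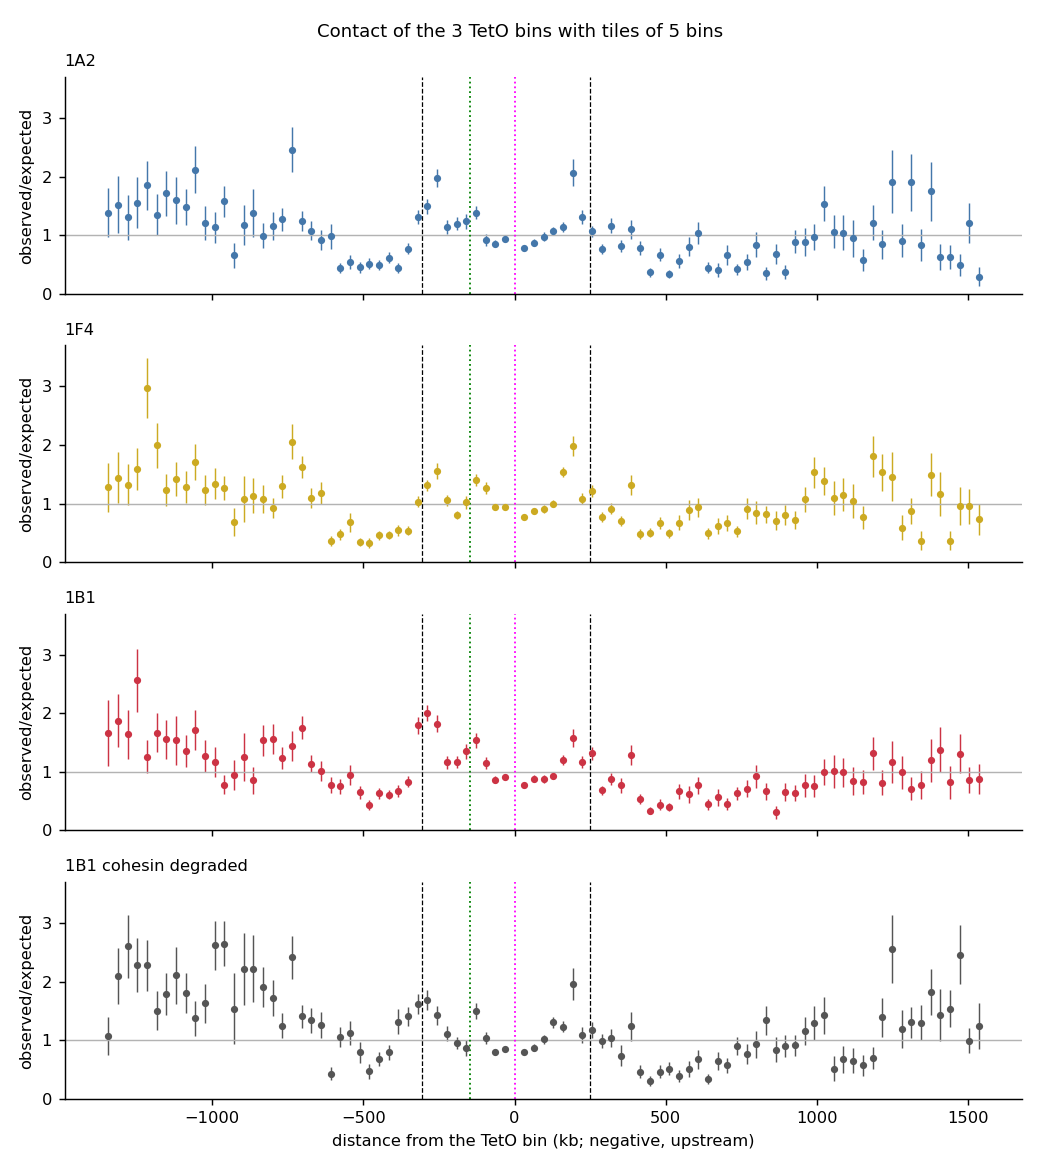
Observed/expected contact of the 3 TetO bins with successive tiles of 5 bins (32 kb), against the distance of the tile from the TetO bin in kb, for each library; points are means and bars Poisson counting errors. Dashed black lines mark the TAD boundaries, the dotted green line LacO and the dotted magenta line TetO; in all 4 panels the 3 tiles nearest the upstream boundary on its inner side and the tile at the start of Npr3 (1.57 to 2.07) stand above 1.

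At the upstream boundary the contact of TetO was higher in 1B1 than in both lines without CTCF sites. Observed/expected of TetO with the 3 bins at the boundary was 1.65 ± 0.193 in 1A2 (87 reads), 1.40 ± 0.143 in 1F4 (108 reads), 2.58 ± 0.229 in untreated 1B1 (152 reads) and 1.96 ± 0.254 in cohesin-degraded 1B1 (70 reads). The log2 ratio was 0.64 ± 0.21 for 1B1 over 1A2 and 0.88 ± 0.20 for 1B1 over 1F4, against an SD of 0.35 at other viewpoints in both cases. For 1F4 over 1A2 it was -0.24 ± 0.22, about the size of its counting error. The 4 comparisons share libraries and are not independent of each other.

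The higher contact of 1B1 extended over the bins on both sides of the boundary. In the 5 bins inside it observed/expected was 1.83 ± 0.135 in untreated 1B1, 1.40 ± 0.122 in 1A2 and 1.28 ± 0.103 in 1F4, and in the 5 bins outside it 1.21 ± 0.0994, 0.916 ± 0.0904 and 0.729 ± 0.0768. Among the bins around the boundary, the highest value of 1B1 lay in the boundary bin, 3.03 ± 0.445, followed by the next bin inward, 2.87 ± 0.400. In 1A2 these bins had 2.00 ± 0.386 and 1.57 ± 0.314, and in 1F4 they had 1.35 ± 0.240 and 1.52 ± 0.255. Thus 1F4 had no local peak at the boundary bin, while 1A2 had a lower one next to 1.39 ± 0.294 in the bin outward of it. Further inward, the bin 256 kb upstream of TetO was higher than the boundary bin in 1A2 (3.04) and 1F4 (2.28), and stood at 2.14 in untreated 1B1. In cohesin-degraded 1B1 the boundary bin had 2.63 ± 0.554 on 26 reads, against 54 reads in untreated 1B1, and the next bin was at 1.65 ± 0.377. Without division by the expected value, the log2 ratio of cohesin-degraded over untreated 1B1 at the boundary window was -1.08.

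Each of the 3 viewpoint bins gave its highest value at the upstream boundary in 1B1. The TetO bin alone had 2.00 ± 0.325, 1.92 ± 0.289, 2.90 ± 0.378 and 2.19 ± 0.422 in 1A2, 1F4, 1B1 and cohesin-degraded 1B1. The bin downstream of it had 1.12 ± 0.201, 1.59 ± 0.214, 2.15 ± 0.267 and 1.60 ± 0.298. The thinly covered upstream neighbour had 1.84 ± 0.434, 0.706 ± 0.235, 2.68 ± 0.507 and 2.10 ± 0.562, and its value in 1F4 rested on 9 reads. For the TetO bin itself 1A2 and 1F4 therefore lay within counting error of each other, and the lower mean of 1F4 came from the upstream neighbour. The same boundary seen from LacO, on which side no CTCF cassette faced it, had a log2 ratio of -0.15 ± 0.18 for 1B1 over 1A2 and -0.25 ± 0.17 for 1B1 over 1F4.

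**Figure D2:**
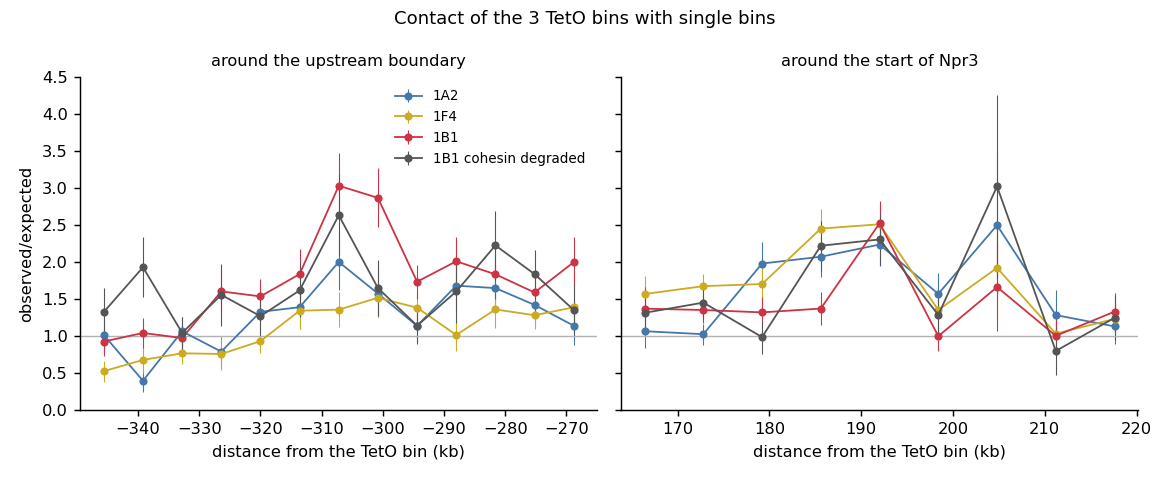
Observed/expected contact of the 3 TetO bins with single bins of 6.4 kb around the upstream TAD boundary (left) and around the start of Npr3 (right), against distance from the TetO bin in kb; colours are the 4 libraries and bars Poisson counting errors. At the upstream boundary 1B1 reaches 3.03 and 2.87 in adjacent bins, and in the bin 192 kb away, at the start of Npr3, all 4 libraries lie between 2.24 and 2.52, while the bin before it separates 1B1 (1.37) from 1F4 (2.45).

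In the remainder of the TAD the differences of 1B1 from 1A2 and 1F4 were smaller, and their direction varied between intervals. Between the upstream boundary and LacO, observed/expected was 1.42 ± 0.0603 in 1A2, 1.14 ± 0.0475 in 1F4, 1.45 ± 0.0570 in untreated 1B1 and 1.22 ± 0.0654 in cohesin-degraded 1B1. Here 1A2 and 1B1 were alike (log2 ratio 0.04 ± 0.08) and 1F4 was the low library, with 0.35 ± 0.08 for 1B1 over 1F4 (SD 0.15) and -0.31 ± 0.09 for 1F4 over 1A2 (SD 0.12). Between LacO and TetO the values were 1.01 ± 0.0406, 1.12 ± 0.0398, 1.10 ± 0.0407 and 1.03 ± 0.0443, in the same order. From TetO to the downstream boundary 1B1 was the low library, at 1.06 ± 0.0340 against 1.17 ± 0.0424 in 1A2, 1.16 ± 0.0346 in 1F4 and 1.18 ± 0.0502 in cohesin-degraded 1B1. The log2 ratios were -0.15 ± 0.07 over 1A2 (SD 0.08) and -0.13 ± 0.06 over 1F4 (SD 0.09), and with the TetO bin alone the latter was 0.00274.

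Contact with the downstream boundary window was 1.21 ± 0.135 in 1A2, 1.41 ± 0.140 in 1F4, 1.60 ± 0.151 in untreated 1B1 and 1.40 ± 0.198 in cohesin-degraded 1B1. The log2 ratio was 0.41 ± 0.21 for 1B1 over 1A2 (SD 0.32) and 0.19 ± 0.20 for 1B1 over 1F4 (SD 0.34). With the TetO bin alone the former was -0.11, so that its direction rested on the neighbouring bins.

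**Figure D3:**
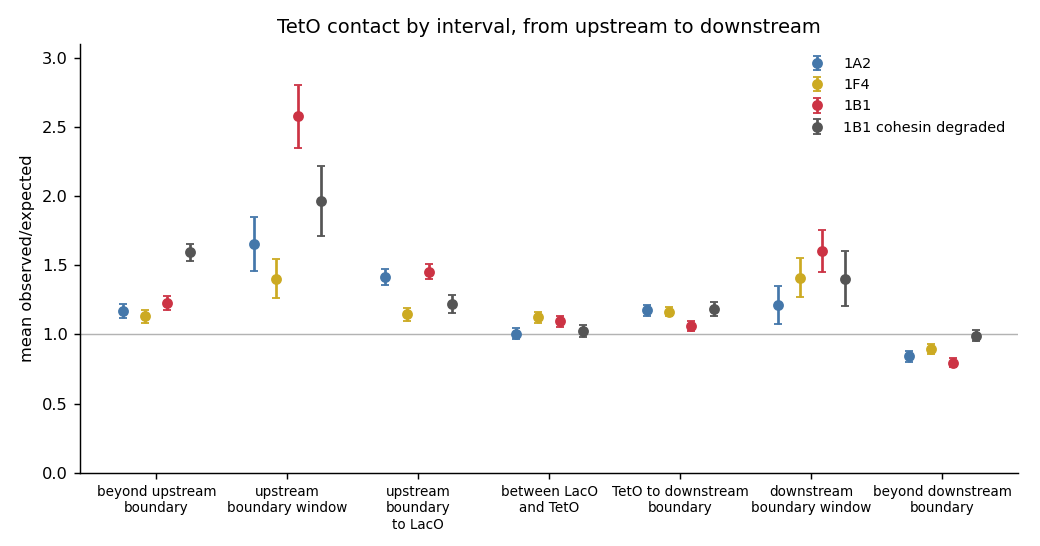
Mean observed/expected contact of the 3 TetO bins with 7 intervals ordered from upstream to downstream, in each library; bars are Poisson counting errors and the grey line marks the regional average of 1. At the upstream boundary window 1B1 (2.58) lies above 1A2 (1.65) and 1F4 (1.40), and beyond both boundaries cohesin-degraded 1B1 is the highest of the 4.

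The balance between the upstream and downstream sides of TetO differed between the lines. Of the reads beyond 2 bins from the viewpoint, 48.6% went upstream in 1A2, 46.9% in 1F4, 52.2% in untreated 1B1 and 49.2% in cohesin-degraded 1B1. Their exact 95% binomial intervals were 47.4% to 49.7%, 45.9% to 47.9%, 51.1% to 53.4% and 48.0% to 50.4%, and cover the counting error of single libraries. With the TetO bin alone the share was 48.8% in 1F4 and 51.4% in cohesin-degraded 1B1. Reads within the TAD made up 69.3%, 71.6%, 66.7% and 68.7% of those leaving the viewpoint bins. Reads past the upstream boundary made up 15.0%, 12.9%, 17.5% and 17.1%, and reads past the downstream boundary 15.7%, 15.5%, 15.8% and 14.1%. The surplus of 1B1 thus lay on the upstream side.

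Observed/expected at mirrored separations gave the same order of the untreated lines. Between 20 and 800 kb, leaving out the separation of LacO on both sides, the log2 ratio of upstream over downstream contact was 0.29 ± 0.06 in 1A2, 0.12 ± 0.06 in 1F4 and 0.52 ± 0.06 in untreated 1B1. The difference was 0.23 ± 0.08 between 1B1 and 1A2 (SD 0.16 over 194 other viewpoints), and 0.40 ± 0.08 between 1B1 and 1F4 (SD 0.16). For 1F4 against 1A2 it was -0.16 ± 0.08 (SD 0.10). In cohesin-degraded 1B1 the log2 ratio was 0.52 ± 0.07, equal to that of untreated 1B1 over the whole range although not band by band.

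The difference of 1B1 from 1A2 and 1F4 was widest at 100 to 200 kb, the band that holds LacO, whose own bins were left out. There the log2 ratio of upstream over downstream contact was -0.23 ± 0.10 in 1A2, -0.45 ± 0.09 in 1F4, 0.12 ± 0.09 in untreated 1B1 and -0.31 ± 0.11 in cohesin-degraded 1B1. The untreated 1B1 library was the only one of the 4 with a value above 0 in this band. The difference was 0.36 ± 0.14 against 1A2 (SD 0.20), 0.57 ± 0.13 against 1F4 (SD 0.21) and -0.43 ± 0.14 for cohesin-degraded against untreated 1B1 (SD 0.73). The last SD is wide because other viewpoints also differed after degradation, and the TetO value lay well inside it.

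**Figure D4:**
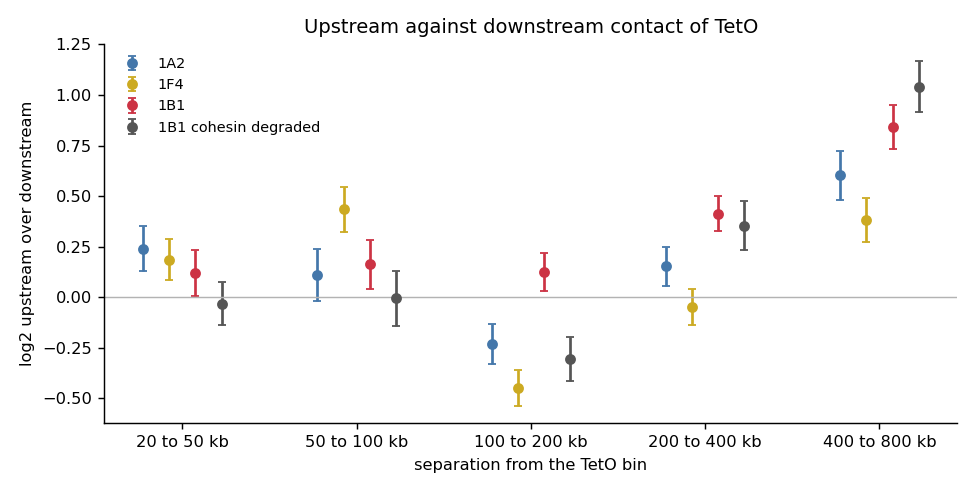
Log2 ratio of upstream over downstream observed/expected contact of TetO in 5 bands of mirrored separation (kb), per library, with Poisson counting errors; values above 0 mean more contact upstream. At 100 to 200 kb 1B1 is at 0.12 while the other 3 libraries lie between -0.45 and -0.23, and at 400 to 800 kb all 4 are above 0.

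Both sides contributed to this shift. At 100 to 200 kb upstream, observed/expected was 1.14 ± 0.0586 in 1A2, 1.05 ± 0.0493 in 1F4, 1.31 ± 0.0590 in untreated 1B1 and 1.11 ± 0.0652 in cohesin-degraded 1B1. At the same separation downstream it was 1.32 ± 0.0527, 1.42 ± 0.0479, 1.18 ± 0.0486 and 1.35 ± 0.0595. Hence 1B1 was the highest library on the upstream side and the lowest on the downstream side. At 200 to 400 kb upstream, a band that spans the boundary, 1B1 exceeded 1F4 by a log2 ratio of 0.47 ± 0.08 (1.38 against 0.996, SD 0.15) and 1A2 by 0.20 ± 0.08 (1.38 against 1.21, SD 0.13). At 200 to 400 kb downstream the 3 untreated lines lay between 1.03 and 1.08.

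The line with resistance cassettes, 1F4, differed from 1A2 in both directions along the upstream side. At 50 to 100 kb upstream, short of LacO, 1F4 was the highest library at 1.16 ± 0.0711, against 0.947 ± 0.0682 in 1A2, 0.969 ± 0.0634 in 1B1 and 0.903 ± 0.0691 in cohesin-degraded 1B1. The log2 ratio of 1F4 over 1A2 was 0.30 ± 0.14 (SD 0.12) there and -0.28 ± 0.08 at 200 to 400 kb (SD 0.12). The higher contact of 1F4 did not extend over the whole stretch short of LacO, since at 20 to 50 kb upstream it had 0.872 ± 0.0412 against 0.896 ± 0.0476 in 1A2 (-0.040 ± 0.10), and in the 4 bins outside LacO of the tile at chr15:11500801-11532800 it had 1.40 against 1.39. Downstream, the log2 ratios of 1F4 over 1A2 lay between -0.07 and 0.12 in the 6 bands, each close to or within its counting error. With the TetO bin alone the downstream ratio was -0.23 at 20 to 50 kb, -0.26 in the 50 to 100 kb band and -0.064 for 100 to 200 kb. The lines are separate clones, so the cassettes and the clone cannot be told apart.

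Tiles of 5 bins (32 kb) showed where along the chromosome the libraries differed by 1.5-fold or more. Of 90 tiles, 42 upstream and 48 downstream, those with at least 50 reads in both libraries together were counted. As background, the same rule was applied to windows at other viewpoints taken every 3 bins, leaving out windows that met an array. For 1B1 over 1F4, 8 of 66 tiles were higher, where 4.78% of other windows were higher, and 4 were lower, where the background was 2.60%. All 8 higher tiles were upstream. No background was computed for each side, here or in the comparisons below. For 1B1 over 1A2, 5 of 53 tiles were higher against a background of 3.61%, 4 of these upstream, and 4 were lower against 2.83%. For 1F4 over 1A2, 4 of 61 were higher against 2.63% and 3 were lower against 3.72%.

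The tiles held fewer reads than the other windows, with medians of 85 to 106 against 151 to 173, and ratios scatter more widely at fewer reads. Among windows with 50 to 200 reads, a range chosen after the data were seen, 6 of 45 TetO tiles were higher for 1B1 over 1F4 against 8.40% of the others. For 1B1 over 1A2 the count was 5 of 34 against 6.10%, and for 1F4 over 1A2 4 of 40 against 4.59%. Lower were 4 of the 45 for 1B1 over 1F4 against 4.12%, 4 of the 34 for 1B1 over 1A2 against 4.57% and 3 of the 40 for 1F4 over 1A2 against 6.55%. The range of 50 to 200 reads bounds the depth of tiles and other windows but does not match it between them. Within this range the share of higher tiles for 1B1 over 1F4 stood closer to the background in percentage points. For the higher tiles of 1B1 over 1A2 and of 1F4 over 1A2 the gap was wider. It was also wider for the lower tiles of 1B1 over 1A2 and over 1F4.

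Among the 8 tiles higher in 1B1 than in 1F4, those on either side of the upstream boundary had the most reads behind them. The tile just inside it (chr15:11340801-11372800) had 2.01 ± 0.141 on 257 reads in 1B1 and 1.31 ± 0.101 on 209 reads in 1F4, a log2 ratio of 0.62 ± 0.15. The tile at Tars that ends at the boundary (chr15:11308801-11340800) had observed/expected of 1.79 ± 0.139 on 211 reads in 1B1 and 1.03 ± 0.0927 on 151 reads in 1F4, a log2 ratio of 0.80 ± 0.17. The tiles with the highest ratios among the 8 lay beyond the boundary in Adamts12, a gene for a secreted metalloprotease. These tiles were below 1 in all 4 libraries. At chr15:11020801-11052800 the values were 0.783 ± 0.138 in 1B1 and 0.363 ± 0.0863 in 1F4 (1.11 ± 0.43), and at chr15:11116801-11148800 0.650 ± 0.117 and 0.346 ± 0.0723 (0.91 ± 0.40). The highest tiles of 1B1 over 1A2 were also in Adamts12, at chr15:11084801-11116800 (0.948 ± 0.174 against 0.546 ± 0.117) and chr15:11052801-11084800 (0.751 ± 0.128 against 0.443 ± 0.0874). These Adamts12 tiles had 20 to 49 reads per library. Among the remaining tiles higher in 1B1 than in 1F4, that at chr15:10828801-10860800 had 1.57 ± 0.253 in 1B1 and 0.920 ± 0.171 in 1F4 (0.77 ± 0.36). The tile at Dnajc21 and Brix1 (chr15:10380801-10412800) had 2.56 ± 0.533 and 1.59 ± 0.353 (0.69 ± 0.44). Below 1 in both lines were chr15:11276801-11308800 (0.65 ± 0.26) and chr15:11052801-11084800 (0.67 ± 0.38).

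The lowest tiles of 1B1 had 19 to 45 reads in that library. At chr15:10668801-10700800, a tile without a protein-coding gene, observed/expected was 0.781 ± 0.159 in 1B1, 1.58 ± 0.266 in 1A2 and 1.26 ± 0.210 in 1F4. At chr15:10412801-10444800, which overlaps Brix1, Rad1 and Ttc23l, it was 1.26 ± 0.282 in 1B1 and 2.98 ± 0.517 in 1F4, on 23 and 43 reads. The tile in C1qtnf3 and Amacr (chr15:10892801-10924800) had 1.44 ± 0.253 in 1B1 and 2.46 ± 0.382 in 1A2. In Pdzd2, a gene for a multi-PDZ-domain protein, the tile at chr15:12620801-12652800 had 0.755 ± 0.189 in 1B1 and 1.53 ± 0.269 in 1F4, and the adjacent tile at chr15:12652801-12684800 had 0.996 ± 0.220 in 1B1 and 1.53 ± 0.297 in 1A2. The remaining highest tile of 1B1 over 1A2 (chr15:10796801-10828800) had 1.54 ± 0.269 against 0.993 ± 0.219.

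Between 1F4 and 1A2 the tiles at the ends of the ranking were scattered. The lowest was again the tile at chr15:11020801-11052800 in Adamts12, 0.363 ± 0.0863 in 1F4 and 0.978 ± 0.211 in 1A2, followed by a tile in Zfr (chr15:12044801-12076800, 0.476 ± 0.0850 against 0.779 ± 0.121) and another in Adamts12 (chr15:11148801-11180800, 0.330 ± 0.0827 against 0.512 ± 0.0953). The highest lay in Pdzd2, at chr15:12460801-12492800 (0.814 ± 0.149 against 0.348 ± 0.107) and chr15:12396801-12428800 (0.914 ± 0.177 against 0.544 ± 0.140), and at chr15:10412801-10444800 (2.98 ± 0.517 against 1.85 ± 0.415). These tiles had 13 to 57 reads per library.

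Tiles that TetO contacted at 1.5 times the regional average or more numbered 14 of 90 in 1A2, 12 in 1F4, 16 in untreated 1B1 and 25 in cohesin-degraded 1B1, against backgrounds of 16.0%, 16.2%, 15.7% and 16.2% at other viewpoints. In 1B1 15 of the 16 were upstream, compared with 9 of 14 in 1A2, 7 of 12 in 1F4 and 20 of 25 in cohesin-degraded 1B1. Tiles meeting the threshold with at least 50 reads were fewer, 3, 5, 6 and 6, and at that depth untreated and cohesin-degraded 1B1 had the same split, 5 upstream and 1 downstream each. No background was computed for each side, and nothing is read from the split. The counts depended on the processing, being 3, 8, 3 and 9 in the same libraries without balancing and 3, 2, 2 and 12 at a threshold of 2. Enrichment in all 4 libraries was seen in 2 tiles, 1 at the start of Npr3 (chr15:11820801-11852800) and 1 near the region's upstream end at Dnajc21 and Brix1 (chr15:10380801-10412800), which had 16 to 29 reads per library.

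Promoters were examined in 22 windows of 3 bins around protein-coding starts, 2 pairs of which shared a window (Brix1 with Rad1, and Drosha with 6030458C11Rik). Tars, 313.6 kb upstream and beside the boundary, followed the boundary window that it overlaps. Its contact with TetO was 1.57 ± 0.179 in 1A2, 1.21 ± 0.127 in 1F4, 2.13 ± 0.203 in untreated 1B1 and 1.84 ± 0.238 in cohesin-degraded 1B1, a log2 ratio of 0.82 ± 0.20 for 1B1 over 1F4 (SD 0.37) and 0.44 ± 0.21 for 1B1 over 1A2 (SD 0.38). With the TetO bin alone the former was 0.38, below 1.5-fold. Npr3, 192 kb downstream and inside the TAD, was the promoter with the most reads. Its contact was high in every line, 1.96 ± 0.164 in 1A2, 2.10 ± 0.147 in 1F4, 1.63 ± 0.141 in untreated 1B1 and 1.94 ± 0.188 in cohesin-degraded 1B1. The log2 ratio of 1B1 over 1F4 was -0.37 ± 0.16 (SD 0.29), and with the TetO bin alone it was 0.05, so the lower value of 1B1 depended on the neighbouring bins. Sub1, a transcriptional coactivator gene just past the downstream boundary, was at or below the average in all 4 libraries, with 0.728 ± 0.100, 0.738 ± 0.102, 0.594 ± 0.0927 and 0.986 ± 0.152.

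More distant promoters had few reads. Amacr, the gene of a peroxisomal racemase 736 kb upstream, had 2.44 ± 0.433 in 1A2, 2.60 ± 0.394 in 1F4, 1.35 ± 0.264 in untreated 1B1 and 2.10 ± 0.362 in cohesin-degraded 1B1, on 33 to 54 reads. Its log2 ratio was -0.85 ± 0.38 for 1B1 over 1A2 (SD 0.62) and -0.94 ± 0.36 for 1B1 over 1F4 (SD 0.51). Mtmr12, which encodes a catalytically inactive myotubularin, had 0.785 ± 0.165, 0.692 ± 0.135, 0.337 ± 0.100 and 0.454 ± 0.134, with 14 reads in 1B1. Zfr, an RNA-binding zinc finger gene, had 0.859 ± 0.151, 0.568 ± 0.0988, 0.731 ± 0.125 and 0.522 ± 0.135. Both genes lie beyond the downstream boundary and were below average in all 4 libraries. The promoters of Agxt2, Gm2606, Cdh6, Dnajc21, Ttc23l, Pdzd2 and Adamts12 passed 1.5-fold in 2 or more of the comparisons on 1 to 37 reads per library, as did the shared window of Brix1 and Rad1 on 9 to 27, and no order between libraries is read from them. With at least 50 reads in both libraries together, no promoter window of 8 was higher by 1.5-fold in 1B1 than in 1A2 and 1 was lower (Amacr), beside 3.61% and 2.83% of the tile windows at other viewpoints. For 1B1 over 1F4, 1 of 10 was higher (Tars, not with the TetO bin alone) and 2 were lower (Amacr and Pdzd2), beside 4.78% and 2.60%. For 1F4 over 1A2, 1 of 11 was higher (Adamts12) and 1 was lower (Zfr), beside 2.63% and 3.72%. Counts this small are not read as a result about promoters.

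After cohesin degradation the contact of TetO was higher beyond both TAD boundaries, relative to the average of the region at each separation. Observed/expected beyond the upstream boundary was 1.59 ± 0.0613 in cohesin-degraded 1B1 and 1.23 ± 0.0491 in untreated 1B1, and beyond the downstream boundary 0.990 ± 0.0402 and 0.796 ± 0.0326. The log2 ratios were 0.38 ± 0.08 (SD 0.35) and 0.32 ± 0.08 (SD 0.25). Inside the TAD, contact between the upstream boundary and LacO was lower, with a log2 ratio of -0.25 ± 0.10 (SD 0.40). The boundary window itself had -0.39 ± 0.23 (SD 0.62). From TetO to the downstream boundary the log2 ratio was 0.16 ± 0.08 (SD 0.32), and -0.11 without division by the expected value, so that intervals inside the TAD went both ways. The SD of other viewpoints, 0.25 to 0.62 over the 7 intervals, was wider than in any comparison of untreated lines for the same interval, and the values of the intervals inside the TAD lay within it.

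The increases beyond the boundaries held for observed/expected and not for the balanced signal itself, whereas the decreases between the upstream boundary and LacO and at the boundary window had the same sign on both scales. The mean balanced signal of the region at the separation of the upstream boundary (307.2 kb) was 41.8 in 1A2, 38.6 in 1F4, 41.8 in untreated 1B1 and 25.7 in cohesin-degraded 1B1. Without division by this average, the log2 ratio was -0.12 beyond the upstream boundary and -0.26 beyond the downstream boundary, while it was -0.90 between the upstream boundary and LacO and -1.08 at the upstream boundary window. In separation bands, the undivided signal was lower after degradation from 50 to 800 kb on both sides. Beyond 800 kb it was higher, with log2 ratios of 0.16 upstream and 0.23 downstream, so that both scales had the same sign there. At these separations observed/expected was 1.96 ± 0.104 against 1.45 ± 0.0844 upstream, a log2 ratio of 0.44 ± 0.11 (SD 0.39), and 1.22 ± 0.0640 against 0.907 ± 0.0519 downstream, 0.43 ± 0.11 (SD 0.28).

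**Figure D5:**
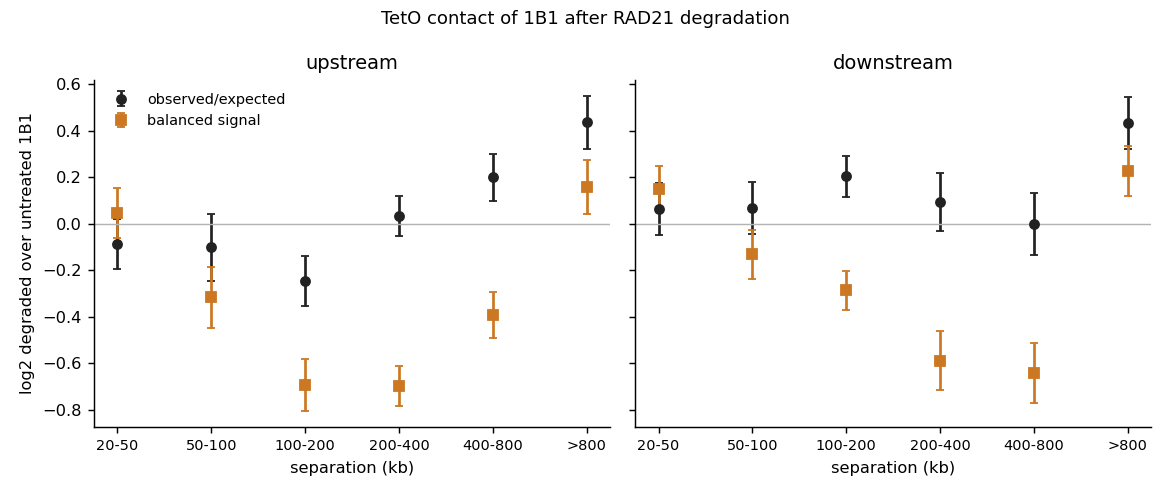
Log2 ratio of cohesin-degraded over untreated 1B1 for the contact of TetO in 6 bands of separation (kb) on each side, as observed/expected (black circles) and as balanced signal without division by the expected value (orange squares); bars are Poisson counting errors. At 200 to 400 kb the observed/expected ratio is near 0 (0.03 upstream and 0.09 downstream) while the balanced signal is lower, and over 800 kb both are above 0.

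The step in TetO contact across each TAD boundary was smaller in the cohesin-degraded library than in the untreated lines. This step, the log2 ratio of the 5 bins inside a boundary over the 5 bins outside it, was defined after the profile had been seen. The boundaries themselves were insulation minima of 1A2 and 1F4, which can favour a step in these lines over 1B1, treated or not. At the upstream boundary it was 0.62 ± 0.19 in 1A2, 0.82 ± 0.19 in 1F4, 0.59 ± 0.16 in untreated 1B1 and 0.20 ± 0.21 in cohesin-degraded 1B1. At the downstream boundary it was 0.76 ± 0.21, 0.41 ± 0.20, 0.71 ± 0.21 and 0.24 ± 0.25. The difference between cohesin-degraded and untreated 1B1 was -0.40 ± 0.27 and -0.47 ± 0.33, less than 2 counting errors at either boundary. On the outside of the upstream boundary the 2 nearest whole tiles, chosen after their values were seen, had 1.41 and 1.32 in cohesin-degraded 1B1 against 0.835 and 0.668 in 1B1. The first has no protein-coding gene and the second holds the end of Adamts12.

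Tiles that differed by 1.5-fold after degradation were counted in the same way. Of 62 tiles counted, 39 of them upstream, 11 (17.7%) were higher, 9 of these upstream, against a background of 14.4%, and 3 (4.84%) were lower against 10.9%. The share of higher tiles was close to the background. With 50 to 200 reads, 11 of 44 were higher against 18.1% of the other windows and 2 were lower against 12.2%. The 3 highest lay between 851.2 and 1004.8 kb upstream. The farthest of them held the start of Rai14, a gene for an ankyrin-repeat protein of the actin cytoskeleton. At chr15:10668801-10700800 the values were 2.65 ± 0.386 in cohesin-degraded and 0.781 ± 0.159 in untreated 1B1 (log2 ratio 1.76 ± 0.36, 62 and 27 reads). At chr15:10764801-10796800 they were 2.22 ± 0.579 and 0.854 ± 0.234, and at chr15:10636801-10668800, which overlaps Rai14, 2.62 ± 0.417 and 1.17 ± 0.254. The first of these tiles was also the lowest of 1B1 over 1A2, its value in untreated 1B1 being below the other 3 libraries. The Rai14 promoter window had 1.22 ± 0.345 in 1A2, 1.49 ± 0.355 in 1F4, 0.940 ± 0.267 in untreated 1B1 and 3.31 ± 0.596 in cohesin-degraded 1B1 (38 reads), a log2 ratio of 1.82 ± 0.49 over untreated 1B1 (SD 0.98) that was 1.55 without division by the expected value.

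The lowest tiles after degradation were at chr15:11020801-11052800 in Adamts12 (0.430 ± 0.107 against 0.783 ± 0.138), at chr15:12172801-12204800 in Mtmr12 (0.383 ± 0.103 against 0.665 ± 0.128) and at chr15:11468801-11500800. The last takes in LacO bins, which were left out, and in its remaining 3 bins upstream of LacO it had 0.872 ± 0.140 on 63 reads against 1.35 ± 0.127 on 153, a log2 ratio of -0.63 ± 0.27. It was the lowest ratio inside the TAD. Among promoters, the log2 ratio of Tars was -0.22 ± 0.23, of Npr3 0.25 ± 0.19 and of Sub1 0.73 ± 0.32, and the last was 0.00335 without division by the expected value. Of 10 promoter windows with at least 50 reads, 4 were higher by 1.5-fold in observed/expected and none lower. Of the tile windows at other viewpoints, which are wider than a promoter window, 14.4% were higher and 10.9% lower. Among windows of the promoter's own shape at other viewpoints, Rai14 lay at percentile 98.9, Amacr at 88.5, Adamts12 at 89.6 and Sub1 at 87.3. As above, counts this small are not read as a result about promoters. Without division by the expected value Rai14 (1.55) was still past 1.5-fold, whereas Amacr (0.15), Adamts12 (0.28) and Sub1 were not.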

How the data were processed

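Per the study's methods, Tiled Capture-C libraries (MboI digestion, oligonucleotide capture of target regions) were sequenced in pairs, and the authors mapped them with HiC-Pro 2.11.4 to mm9, kept unique valid pairs within the targets, counted these in 6.4 kb bins and balanced them with ICE, which gives every bin the same sum. The deposited values are this balanced contact signal, which summed to the same total in every library, 1 library per group. Balanced signal is a read number times 1 factor per bin. Solving for the factors returned whole reads (within 0.05) for 100% of values, and Poisson errors came from these reads. Expected values were means per separation over chr15:10278401-13196800. Balancing equalises bins, so thinly covered bins carry larger errors than their signal shows.

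Groups came from the sample labels. Measures were interval, separation band, side asymmetry, tile and promoter contact. Each was taken in 4 comparisons (1B1 with 1A2 and 1F4, 1F4 with 1A2, cohesin-degraded with untreated 1B1). All were set beside all other viewpoints of the region, except tiles, for which other viewpoints were taken every 3 bins. Boundaries were insulation minima of 1A2 and 1F4. Named items were the arrays, both boundaries, Tars, Npr3 and Sub1, other promoters past 1.5-fold in 2 comparisons, and the 3 highest and 3 lowest tiles per comparison. Members and lists were chosen with earlier results of these data known. The boundary step, the tile comparison at 50 to 200 reads and Zfr's promoter were added after seeing the data. Gene positions are from GENCODE M1 and sequences from NCBIM37. Computations used Python 3.11.15, NumPy 2.4.6 and SciPy 1.17.1 and were tested on simulated maps. A wild-type map was not used here.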

Additional observations from a re-analysis of the deposited data

How the results depend on the processing

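Of 998 values recomputed under alternatives, 904 stayed within the 95% counting interval of the main value or 1.5 times the main count, 86 moved further, and 8 reversed a ratio that was larger than that interval. The 28 values of the side asymmetry and the 56 of the boundary step all stayed within it. No paired analysis was possible because each group had 1 library. Depth limits single tiles, which held a median of 85 to 106 reads per comparison.

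Without division by the expected value, log2 ratios of cohesin-degraded over untreated 1B1 reversed beyond the upstream boundary (-0.12), from TetO to the downstream boundary (-0.11), beyond the downstream boundary (-0.26), at 400 to 800 kb upstream (-0.39) and at 100 to 200 kb downstream (-0.29). They moved between the upstream boundary and LacO (-0.90), at the upstream boundary window (-1.08) and at the downstream one (-0.85). Beyond the downstream boundary 1B1 over 1F4 reversed (0.076), and beyond the upstream boundary the ratios moved to 0.26 for 1B1 over 1A2, 0.50 for 1B1 over 1F4 and -0.24 for 1F4 over 1A2. With the TetO bin alone, 1B1 over 1F4 reversed from TetO to the downstream boundary (0.00274) and at Npr3 (0.045), and values moved from TetO to the downstream boundary for 1F4 over 1A2 (-0.19) and at the downstream boundary window for 1B1 over 1A2 (-0.11) and 1F4 over 1A2 (-0.30). The share of reads upstream became 48.8% in 1F4 and 51.4% in cohesin-degraded 1B1 with the TetO bin alone, and 48.3% in 1F4 with 5 bins. As a share of balanced signal it became 52.2%, 51.2%, 55.4% and 53.5% in 1A2, 1F4, 1B1 and cohesin-degraded 1B1.

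Tile counts followed the settings, in part by construction, since stricter limits leave fewer tiles. Tiles higher in 1B1 than in 1A2 numbered 8 with 30 reads, 0 with 100 reads or a fold of 2, 1 with 10 bins and 3 without balancing; lower ones numbered 1 with 100 reads, a fold of 2, 3 bins or 10 bins, and 2 without balancing. For 1B1 over 1F4, higher tiles numbered 3 with 100 reads, 1 with a fold of 2 and 3 with 10 bins, and lower ones 0 with 100 reads and 2 with a fold of 2. For 1F4 over 1A2, higher tiles numbered 7 with 30 reads, 0 with 100, 1 with a fold of 2 or 3 bins and 2 with 10 bins, and lower ones 5 with 3 bins and 1 with 100 reads, a fold of 2 or 10 bins. After degradation, higher tiles numbered 20 with 30 reads, 3 with 100, 4 with a fold of 2 and 6 with 3 bins, and lower ones 5 with 30 reads, 1 with 100 reads or 10 bins and 0 with a fold of 2. Enriched tiles numbered 3, 2, 2 and 12 with a fold of 2 and 6, 4, 6 and 15 with 10 bins in the 4 libraries, 23, 26 and 48 with 3 bins in 1F4, 1B1 and cohesin-degraded 1B1, and 3, 3 and 9 without balancing in 1A2, 1B1 and cohesin-degraded 1B1. The cause of the other moves was not tested.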

Other observations

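Contacts of TetO with the captured regions on other chromosomes were counted apart from the profile. They numbered 6 reads in 1A2, 9 in 1F4, 11 in untreated 1B1 and 9 in cohesin-degraded 1B1, between 0.0573% and 0.0984% of the viewpoint's reads, with overlapping exact 95% binomial intervals (0.0210% to 0.125% in 1A2 and 0.0491% to 0.176% in 1B1).

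The downstream boundary was also seen from LacO. Its contact with LacO was 1.87 in 1A2, 1.96 in 1F4, 2.09 in untreated 1B1 and 1.17 in cohesin-degraded 1B1. The log2 ratio of cohesin-degraded over untreated 1B1 was -0.84 ± 0.24. With TetO, which lies closer to it, the log2 ratio was -0.19 ± 0.25. The difference between the viewpoints was not tested.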
